A study of Mus musculus with 6 samples.

Results

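Nuclear receptors are transcription factors whose DNA-binding domain carries a pair of zinc fingers, and many of them are switched by small lipophilic ligands such as retinoic acid, thyroid hormone, steroids, oxysterols and fatty acids. They were examined here in the urogenital ridge of mouse embryos that lack Wt1, whose zinc finger protein is required for the gonad and the kidney to form. The set was chosen by name as the superfamily without Nr5a1 and Nr0b1 and held 44 genes. The platform annotation named a probe for 34 of them (41 probes, of 13769 named genes and 20289 probes in all), 33 of these had values on every array, and 22 were bright enough to be tested. The Wt1 knockout group was 3 arrays of ridges from Mf1 embryos homozygous for a deletion of Wt1, and the wild-type group was 3 arrays of ridges from Mf1 embryos. For each array the ridges of 4 female embryos and 1 male were pooled (5 in all), at E11.5 with 11 to 12 tail somites, just before the sexes diverge. The labels name neither the Wt1 allele nor separate pools for the arrays of a genotype, so the p-values reflect array-to-array spread that may be no more than technical. The number of arrays limits the precision. Over the tested probes, the median SD of log2 values was 0.153 among knockout arrays and 0.0952 among wild-type arrays. The test pools this spread over both genotypes.

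In this tissue retinoic acid, made in the mesonephros and coelomic lining, acts through RAR and RXR heterodimers, while the orphan COUP-TF receptors, encoded by Nr2f1 and Nr2f2, mark mesenchyme, veins and parts of the nervous system. Steroid receptors such as those for estrogen and androgen act mostly later, once the gonad and its ducts have differentiated. WT1 itself works beside nuclear receptors in the gonad, where it is known to act upstream of Nr5a1.

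The deleted gene followed the labels. Wt1 (probe 2836) averaged 14.7 ± 0.788 in knockout arrays and 42.3 ± 2.77 in wild-type arrays (deposited intensity, a linear spot brightness in which the median probe of each array lies near 1; SD, n = 3 each). It was 2.86-fold lower in the knockout (adjusted p = 1.13e-07 in limma). The position of this probe relative to the deletion is not given in the sources used here. Of the 10 ridge markers listed, 8 were tested, 3 rose and 3 fell, Wt1 among them, while Pax2 had no named probe and Pax8 was too dim to test. Lhx9 fell 3.78-fold (1.12 in knockout, 4.23 in wild type) and Emx2 1.54-fold (3.96 in knockout, 6.12 in wild type). Osr1, Gata3 and the stromal factor Tcf21 rose, Tcf21 averaging 25.5 in knockout and 19.7 in wild type. Lhx1 and Gata4, a gonad and mesothelium factor, did not pass, Gata4 averaging 2.22 in knockout and 2.30 in wild-type arrays. Of all tested probes, 24.1% rose and 17.2% fell. In whole tissue, fewer cells of a type and less RNA per cell cannot be told apart.

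Of the 22 tested receptor genes, 5 rose in the knockout, 2 fell and 15 did not pass the threshold, an adjusted p under 0.05 in limma over all 15062 tested probes. Nr2f1, Nr6a1, Nr4a3, Rara and Nr2f6 rose, and Rxrb and Rora fell. Over all tested probes 24.1% rose and 17.2% fell (41.3% in either direction), against 22.7% and 9.09% of these receptor genes, each read by 1 probe. The share that rose was near the background. The share that fell lay below it but rests on 2 genes, and 3 fell by the probe of each gene with the smallest p. Scaling moved both: under quantile normalization 20.2% of all probes rose and 19.6% fell, with 4 receptor genes higher and 3 lower. Under cyclic loess 19.7% of all probes rose and 20.1% fell, with 3 receptor genes higher and 3 lower. With a change of at least 1.5-fold required as well, 2 passed, Nr2f1 as higher and Rxrb as lower, which is 9.09% against 15.5% of all tested probes (6.83% higher, 8.68% lower). The median log2 change of the 22 genes was 0.14 and that of all tested probes 0.09. The median size of the change, taken without its sign, was 0.29 for the receptors and 0.30 for all tested probes. The genotypes did not overlap at 5 receptor genes as higher and at 3 as lower, where all tested probes gave 31.4% and 21.4%. Among the 17 alternative settings that refit all probes, Nr2f1 and Nr6a1 passed in every one, and each of the other 5 calls ended in at least 2.

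**Figure D1:**
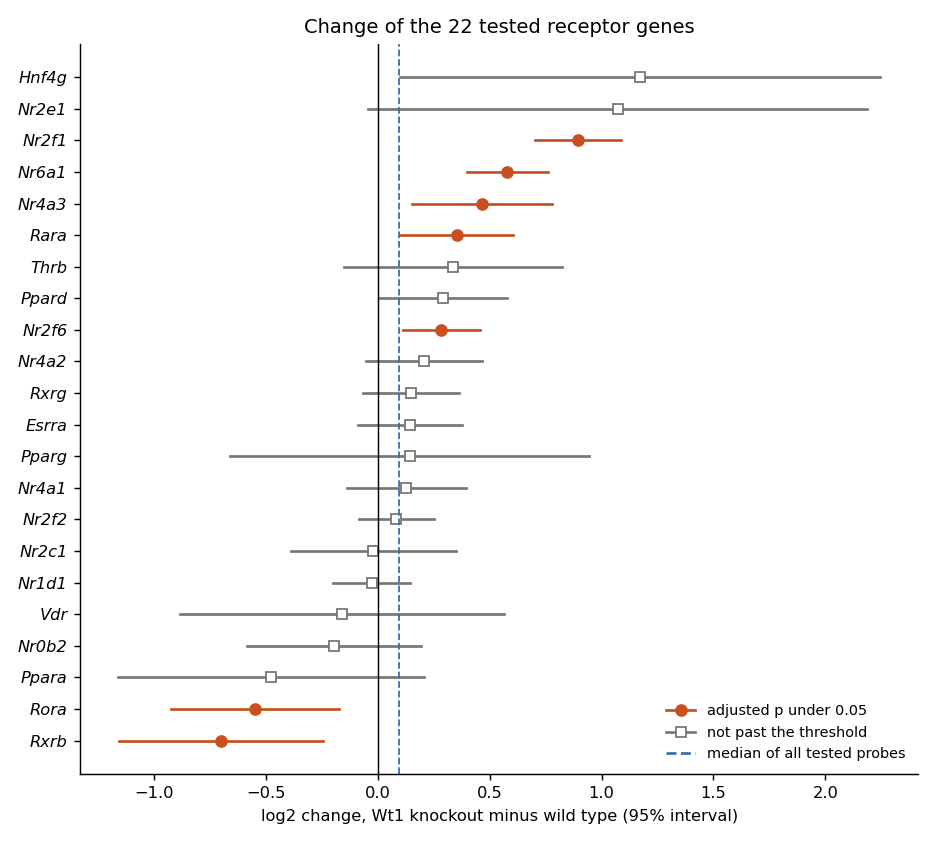
Log2 change (x axis, Wt1 knockout minus wild type) of the 22 tested receptor genes with the 95% interval of the moderated test, 3 arrays per genotype. Filled circles passed an adjusted p of 0.05 and the dashed line is the median of all tested probes at 0.09; Nr2f1 and Nr6a1 have narrow intervals above 0, while Hnf4g and Nr2e1 have wide ones.

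Among the COUP-TF genes, Nr2f1, which encodes COUP-TFI, a receptor with no firmly assigned ligand that patterns the forebrain and other neural tissue, had the lowest adjusted p of the set. Its intensities (probe 11718) were 66.6, 82.3 and 73.2 in the knockout arrays, against 41.9, 39.9 and 37.3 in the wild-type arrays. Every knockout array lay well above every wild-type array. The means were 74.0 ± 7.91 in knockout and 39.7 ± 2.29 in wild type (SD, n = 3 each), 1.86-fold higher, with a log2 change of 0.90 ± 0.09 (SE) and adjusted p = 1.35e-05. Over the 17 alternatives the log2 change ran from 0.65 under quantile normalization to 0.97, and the adjusted p from 1.33e-08 to 0.00254.

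Most markers of neurons and some of the neural tube also rose, where 24.1% of all tested probes rose and 17.2% fell. Of 10 neuronal markers measured, 9 were tested, 8 rose, none fell, and Nefm did not pass (log2 change 0.17). Their summed intensity was 56.8 to 57.2 on the knockout arrays and 28.9 to 29.3 on the wild-type arrays. Of 8 neural tube progenitor markers measured, 6 were tested and 3 rose, with sums of 46.7 to 49.1 in knockout and 18.6 to 19.7 in wild type. Zic1, Dbx1 and Nkx2-2 rose. Dbx1 and Nkx2-2 lay under the limit for dim probes (an intensity of 0.217) on every wild-type array. Both entered the test only through their knockout values, so the count of 3 depends in part on the filter. Zic1 averaged 29.5 in knockout and 1.51 in wild type and made up most of the difference between these sums. Sox1, Pax3 and Nes did not pass (log2 changes 0.44, -0.12 and -0.04), 1 marker passed as lower under cyclic loess, and Sox2 and Olig2 were too dim to test. Of 10 skeletal muscle markers measured, 9 were tested, 5 rose and none fell, although 1 passed as lower under quantile and cyclic loess normalization. Their sums were 51.3 to 56.8 in knockout and 43.1 to 45.8 in wild type. Actc1 made up most of both sums, averaging 35.2 in knockout and 39.5 in wild type, and did not pass (log2 change -0.17). The part of these cell types in the change of Nr2f1, or of any other receptor gene here, was not tested.

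The letters before the Nr2f1 start are shown because Nr2f1 and Nr6a1 were the members that rose under every setting. RefSeq (GRCm38.p6) lists 2 start sites for Nr2f1. The window of the upstream one, chr13:78198824-78199123 on the minus strand, runs from 250 bases before the start to 50 after it and is 68.0% G and C, against a median of 52.7% over all 32851 promoter windows. The capitals mark the single GC box (GGGCGG or its reverse complement CCGCCC), a motif found in 35.7% of all windows.
Nr2f1 upstream start: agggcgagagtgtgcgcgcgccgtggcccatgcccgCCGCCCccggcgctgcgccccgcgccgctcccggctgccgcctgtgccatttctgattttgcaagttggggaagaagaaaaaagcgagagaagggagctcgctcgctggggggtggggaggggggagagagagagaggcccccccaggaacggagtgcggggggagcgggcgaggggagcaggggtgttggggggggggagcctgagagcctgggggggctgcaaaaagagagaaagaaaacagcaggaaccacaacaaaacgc
Neither Nr2f1 window held the nuclear receptor half-site AGGTCA (reverse complement TGACCT, in 16.3% of all windows) or GCGTGGG (reverse complement CCCACGC, in 5.04%), a core of the sites bound by WT1 and EGR factors. GCGTGGG can share letters with the GC box, and all motifs were searched on both strands. A match describes letters, not binding.

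Nr2f2, which encodes COUP-TFII, a paralog needed in veins and in the mesenchyme of many organs, gave 2 answers from 2 probes. The brighter probe (11406) read 181, 167 and 159 in knockout arrays and 164, 160 and 155 in wild-type arrays, and the genotypes overlapped. Its log2 change was 0.08 ± 0.08 (SE), with a 95% interval of -0.09 to 0.25 and adjusted p = 0.427. On this probe the direction turned under quantile normalization, to -0.30 (adjusted p = 0.00767), and under cyclic loess, to -0.25 (adjusted p = 0.020).

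The dimmer Nr2f2 probe (2648) read 3.61, 4.65 and 4.03 in knockout arrays, against 7.43, 6.35 and 6.44 in wild-type arrays, with no overlap. It was 1.65-fold lower (log2 change -0.72 ± 0.10, SE, adjusted p = 0.000192) and passed in all 17 alternatives. Within each array, the log2 ratio of the dimmer over the brighter probe was -5.65, -5.16 and -5.30 in knockout, against -4.47, -4.65 and -4.59 in wild type. It was lower on every knockout array. The difference of these ratios, knockout minus wild type, was -0.80 in the deposited values, -0.41 under quantile normalization and -0.48 under cyclic loess, since these scalings act by intensity. The log2 ratio of Nr2f1 over the brighter Nr2f2 probe was -1.44, -1.02 and -1.12 in knockout, against -2.05 to -1.97 in wild type. That difference was 0.82, and 0.95 and 0.92 under the same scalings. The probes were paired after their values were seen, so no test is given. The sources used here do not place the probes on the transcripts.

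Vessel markers and COUP-TF related genes were read beside Nr2f2, where 24.1% of all tested probes rose and 17.2% fell. Of 8 endothelial markers measured, 7 were tested, 5 fell and 1 rose, with sums of 75.8 to 76.0 in knockout and 78.0 to 79.9 in wild type. Pecam1, an adhesion molecule of endothelium, averaged 0.340 in knockout and 0.801 in wild type and fell, while Kdr, a VEGF receptor, averaged 37.7 in knockout and 31.7 in wild type and rose, a call that ended under quantile and cyclic loess normalization, where no endothelial marker passed as higher. Their part in the Nr2f2 values was not tested. Of the list with genes tied to COUP-TF or estrogen receptor action, 6 of 8 measured genes were tested, 3 fell and 1 rose, with a median log2 change of -0.42 against 0.09 for all tested probes. Nrp2, a co-receptor of semaphorins and VEGF-C, rose 1.83-fold and Nrp1 fell 1.48-fold. Zfpm2, which encodes FOG2, a cofactor known to bind COUP-TFII and GATA4, was at least 2.54-fold lower, its knockout mean being below the limit for dim probes (an intensity of 0.217). Ctsd fell 1.23-fold.

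Nr2f6, the third COUP-TF-related gene (EAR2), rose weakly. Its intensities (probe 11717) were 56.0, 65.3 and 61.4 in knockout arrays and 52.6, 48.7 and 48.6 in wild-type arrays, without overlap. The change was 1.22-fold (log2 0.28 ± 0.08, SE, adjusted p = 0.0126). The log2 change was 0.04 under quantile normalization (adjusted p = 0.669) and 0.06 under cyclic loess (adjusted p = 0.506), and it missed the threshold without wild-type array 2 (adjusted p = 0.0594) or 3 (adjusted p = 0.0511).

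Nr2c1, the testicular receptor TR2, had means of 1.13 ± 0.272 in knockout and 1.13 ± 0.0932 in wild type (log2 change -0.02, 95% interval -0.39 to 0.35). Nr2e1, the tailless homolog of neural stem cells, read 0.372, 0.377 and 0.371 in knockout arrays, against 0.0622, 0.187 and 0.369 in wild-type arrays. The knockout arrays were nearly equal and wild-type array 3 lay just under them. With wild-type values under the limit for dim probes raised to it, the knockout mean was 1.44-fold higher. The 95% interval of the log2 change was -0.04 to 2.19. The change did not pass (adjusted p = 0.114) except without wild-type array 3 (adjusted p = 0.0389).

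**Figure D2:**
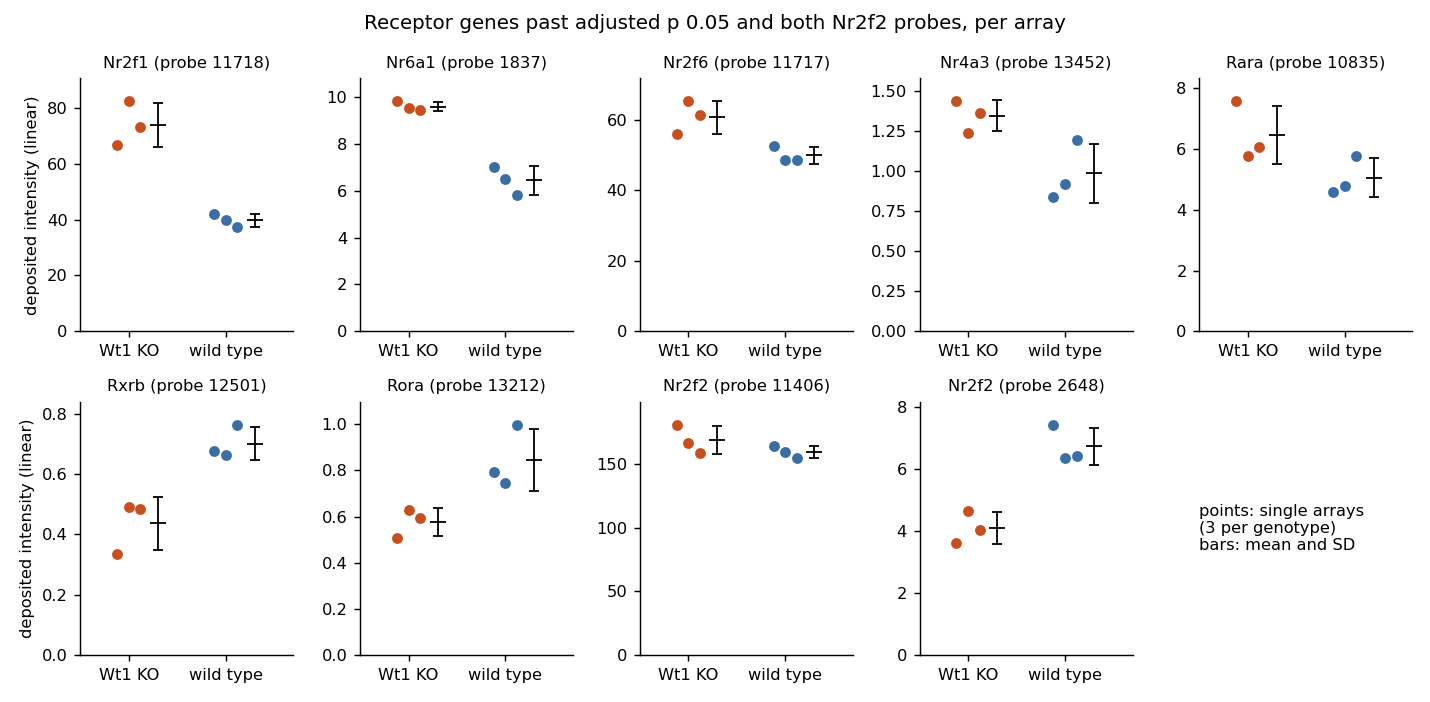
Deposited intensity (y axis, linear, from 0) on each of the 3 knockout arrays (left) and 3 wild-type arrays (right) for the 7 receptor genes past the threshold and for both probes of Nr2f2, with mean and SD. Nr2f1 reads 66.6 to 82.3 in knockout and 37.3 to 41.9 in wild type; the bright Nr2f2 probe overlaps between genotypes and the dim one does not.

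Nr6a1 encodes GCNF, the germ cell nuclear factor, an orphan receptor that binds directly repeated half-sites and is known to silence pluripotency genes in the early embryo. The brighter probe (1837) read 9.82, 9.54 and 9.43 in knockout arrays, against 7.01, 6.52 and 5.80 in wild-type arrays. The genotypes were clearly apart and the knockout arrays close to each other. The means were 9.60 ± 0.199 in knockout and 6.44 ± 0.607 in wild type (SD, n = 3 each), 1.49-fold higher (log2 change 0.58 ± 0.08, SE, adjusted p = 0.000192), with 0.51 to 0.64 over the 17 alternatives. The second probe (11803) lay below the limit for dim probes on all 6 arrays and gave no comparison.

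RefSeq lists 2 starts for Nr6a1. The window of the downstream start, chr2:38784466-38784765 on the minus strand, is shown because it held 2 copies of the half-site in the TGACCT orientation, marked in capitals. Of the 62 promoter windows of the 41 set members in the table, 11 held a half-site (17.7%), close to the 16.3% of all windows.
Nr6a1 downstream start: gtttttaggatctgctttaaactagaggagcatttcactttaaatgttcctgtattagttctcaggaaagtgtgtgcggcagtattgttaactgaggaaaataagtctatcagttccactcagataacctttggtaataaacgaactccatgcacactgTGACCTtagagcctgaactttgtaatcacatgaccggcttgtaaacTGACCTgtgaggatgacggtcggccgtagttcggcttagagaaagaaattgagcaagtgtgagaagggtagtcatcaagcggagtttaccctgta
The upstream Nr6a1 window and the single Nr2f2 window held none of the motifs searched. Which start was in use in the ridge was not measured.

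Among retinoid receptors, Rara, the broadly expressed retinoic acid receptor alpha, rose by a margin close to the spread. Its intensities (probe 10835) were 7.57, 5.77 and 6.06 in knockout arrays and 4.60, 4.79 and 5.78 in wild-type arrays. Wild-type array 3 overlapped with knockout array 2, and knockout array 1 was the highest. The change was 1.28-fold (log2 0.35 ± 0.12, SE, adjusted p = 0.0299). The call ended without wild-type array 1 (adjusted p = 0.125) or 2 (adjusted p = 0.109), with a variance prior that ignores intensity (adjusted p = 0.104) and under cyclic loess (adjusted p = 0.0545).

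Rxrb, a retinoid X receptor and as such the shared partner of RARs, thyroid hormone, vitamin D and lipid receptors, fell. Its intensities (probe 12501) were 0.335, 0.489 and 0.485 in knockout arrays, against 0.676, 0.664 and 0.762 in wild-type arrays, with no overlap. The change was 1.63-fold (log2 -0.70 ± 0.21, SE, adjusted p = 0.0178), and the adjusted p was 0.053, 0.0503 and 0.0832 without wild-type array 1, 2 and 3. The size stayed between -0.80 and -0.52 over the alternatives that tested it. Rxrg averaged 3.04 ± 0.294 in knockout and 2.74 ± 0.195 in wild type, a log2 change of 0.15 (95% interval -0.07 to 0.36). Rxra and Rarg were too dim to test. Rxra read 0.112, 0.323 and 0.167 in knockout arrays and 0.212, 0.0247 and 0.248 in wild-type arrays, and Rarg read 0.158, 0.276 and 0.382 in knockout arrays, against 0.186, 0.114 and 0.166 in wild-type arrays. Rarb, itself a target of retinoic acid, had no named probe. Thrb, a thyroid hormone receptor, and Vdr, the vitamin D receptor, had log2 changes of 0.34 (95% interval -0.15 to 0.82) and -0.16 (-0.89 to 0.56) that did not pass.

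Genes that make, bind or break down the ligands of these receptors were measured beside them, where 24.1% of all tested probes rose and 17.2% fell. Of 19 on the array, 15 were tested, 6 rose, 2 fell and 7 did not pass, with a median log2 change of 0.27 against 0.09 for all tested probes. Aldh1a1, a retinaldehyde dehydrogenase, averaged 2.13 ± 0.174 in knockout and 17.1 ± 0.784 in wild type. The related Aldh1a2 went the other way and rose 1.40-fold (38.4 ± 5.81 in knockout, 27.2 ± 0.623 in wild type). Rdh10 rose 1.19-fold, and Aldh1a3 did not pass (log2 change 0.27). Cyp27a1, the sterol 27-hydroxylase that makes an oxysterol ligand of LXR, rose 1.59-fold (2.06 ± 0.0601 in knockout, 1.30 ± 0.106 in wild type). Crabp2 and Crabp1, retinoic acid binding proteins, were 1.54-fold and 1.45-fold higher, although Crabp1 missed the threshold under quantile normalization (adjusted p = 0.159) and cyclic loess (adjusted p = 0.112).

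Of the retinoic acid receptor target list, 10 of 11 measured genes were tested, 6 rose, 1 fell and 3 did not pass, with a median log2 change of 0.43. All tested probes had a median of 0.09, with 24.1% higher and 17.2% lower. Crabp2, Dhrs3, Cyp26a1 and Stra6 stand in both this list and the ligand list above, so the lists are not independent. Hoxb1, a hindbrain Hox gene with known retinoic acid response elements, rose 2.89-fold (3.02 ± 0.385 in knockout, 1.04 ± 0.0199 in wild type), Meis2 rose 1.66-fold and Cdx1 1.54-fold. Hoxa4 fell 2.26-fold. Cyp26a1, which breaks retinoic acid down, and Stra6, a retinol transporter, had log2 changes of 0.33 and -0.53 that did not pass. Neural tissue also expresses Hoxb1 and Meis2, and the part of the neural markers given above was not tested.

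Rora, the retinoid-related orphan receptor alpha, fell. Its intensities (probe 13212) were 0.508, 0.627 and 0.592 in knockout arrays, against 0.794, 0.746 and 0.997 in wild-type arrays, without overlap. The change was 1.46-fold (log2 -0.55 ± 0.17, SE, adjusted p = 0.0233), and the call ended without wild-type array 1 (adjusted p = 0.0537) or 3 (adjusted p = 0.122). Nr1d1, which encodes the clock repressor REV-ERB alpha, averaged 15.9 ± 0.970 in knockout and 16.3 ± 1.02 in wild type, a log2 change of -0.03 with a 95% interval of -0.20 to 0.14. That interval is among the narrowest of the receptors that did not pass. Nr1d1 overlaps Thra at its end on the opposite strand, and the sources used here do not place the probe. Nr1d2 and Rorb stayed below the limit for dim probes on every array. Of 7 tested clock genes, Clock rose 1.48-fold and the other 6 did not pass, with a median log2 change of 0.01. Among all tested probes 41.3% passed, 24.1% as higher and 17.2% as lower.

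The NR4A genes, which respond as immediate early genes and act without a known endogenous ligand, all had log2 changes above 0. Nr4a3 (NOR-1) passed, with intensities of 1.43, 1.24 and 1.36 in knockout arrays and 0.840, 0.919 and 1.20 in wild-type arrays. The genotypes did not overlap, but wild-type array 3 came close to knockout array 2. The change was 1.38-fold (log2 0.46 ± 0.14, SE, adjusted p = 0.0220). It missed the threshold without wild-type array 1 (adjusted p = 0.101), wild-type array 2 (adjusted p = 0.0828) or knockout array 3 (adjusted p = 0.0503), and with a variance prior that ignores intensity (adjusted p = 0.0540). Nr4a1 (NUR77) and Nr4a2 (NURR1) had log2 changes of 0.13 (95% interval -0.14 to 0.39) and 0.21 (-0.05 to 0.47) and did not pass.

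**Figure D3:**
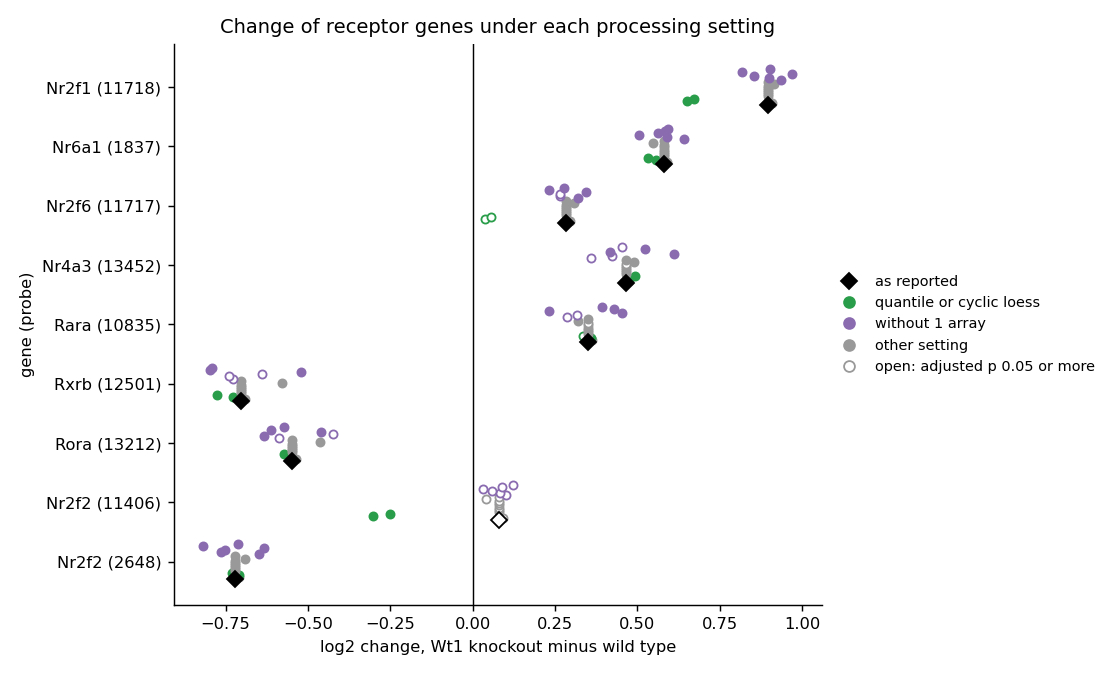
Log2 change (x axis, Wt1 knockout minus wild type) of the 7 called receptor genes and both Nr2f2 probes under the reported processing (diamond) and each alternative (circles), with open symbols where the adjusted p was 0.05 or more. Nr2f1 and Nr6a1 stay filled throughout, Nr2f6 moves to near 0 under quantile and cyclic loess normalization, and the bright Nr2f2 probe crosses 0 there.

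None of the 3 tested lipid-sensing receptors passed. Ppara, the fatty acid receptor of liver and muscle, read 0.311, 0.211 and 0.277 in knockout arrays, against 0.399, 0.322 and 0.380 in wild-type arrays, without overlap. Its log2 change of -0.48 had a 95% interval of -1.16 to 0.21 (adjusted p = 0.244). Ppard averaged 1.23 ± 0.106 in knockout and 1.01 ± 0.130 in wild type (log2 change 0.29, adjusted p = 0.0949), and it passed with array weights (0.37, adjusted p = 0.0256) and without knockout array 1 (0.36, adjusted p = 0.0381). Pparg, the adipocyte receptor, had a log2 change of 0.14 with a 95% interval of -0.66 to 0.94.

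Nr1h3, which encodes the oxysterol receptor LXR alpha, was left out as dim because its mean over the 6 arrays lay under the limit. It read 0.485, 0.243 and 0.390 in knockout arrays, all above the limit of 0.217, and 0.104, 0.110 and 0.0915 in wild-type arrays, all below it. Against that limit it was at least 1.65-fold higher in the knockout. In the fit without the filter its adjusted p was 0.00378, and of the 5026 probes that only this fit tested, 3.62% passed as higher. Nr1h4, the bile acid receptor FXR, read 0.140, 0.187 and 0.187 in knockout arrays and 0.0535, 0.0682 and 0.0582 in wild-type arrays. These groups did not overlap, but both lay below the limit, so no fold is given, and without the filter its adjusted p was 0.0874.

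Targets of LXR and PPAR were measured as well, where 24.1% of all tested probes rose and 17.2% fell. Of the 14 measured, 11 were tested, 5 fell, 1 rose and 5 did not pass, with a median log2 change of -0.28 against 0.09 for all tested probes. Acadm, the medium-chain acyl-CoA dehydrogenase, fell 2.43-fold (0.895 ± 0.0400 in knockout, 2.18 ± 0.0482 in wild type). Lpl, lipoprotein lipase, fell 2.24-fold, Plin2, which coats lipid droplets, 1.77-fold and Angptl4, an inhibitor of lipoprotein lipase, 1.44-fold. Among genes known as LXR targets, Lpcat3, a phospholipid acyltransferase, was the 1 gene of the list that rose (1.23-fold, adjusted p = 0.0141). Apoe, the lipoprotein ligand apolipoprotein E, fell 1.21-fold (adjusted p = 0.00733). Abcg1, Srebf1 and Mylip had log2 changes of -0.28, 0.33 and 0.06 that did not pass, and Abca1 was too dim to test. Hnf4g, a receptor of gut and kidney epithelium, read 0.416, 0.215 and 0.689 in knockout arrays and 0.168, 0.272 and 0.118 in wild-type arrays. The groups overlapped. With wild-type values under the limit for dim probes raised to it, the knockout mean was 1.69-fold higher. The log2 change of 1.17 had a 95% interval of 0.10 to 2.25. It did not pass (adjusted p = 0.0763) except without knockout array 2 (adjusted p = 0.0166). Nr0b2 (SHP), a repressor that lacks a DNA-binding domain, had a log2 change of -0.20 (95% interval -0.59 to 0.19).

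No steroid hormone receptor could be tested. Esr1, estrogen receptor alpha, read 0.118, 0.251 and 0.126 in knockout arrays and 0.0365, 0.177 and 0.0490 in wild-type arrays, and Nr3c1, the glucocorticoid receptor, 0.144, 0.547 and 0.186 in knockout arrays, against 0.150, 0.134 and 0.182 in wild-type arrays. In Nr3c1 only knockout array 2 stood above the limit for dim probes. Both probes of Pgr, the progesterone receptor, averaged under the limit in both genotypes. Of 8 tested glucocorticoid receptor targets, 1 passed, where 41.3% of all tested probes did, 24.1% as higher and 17.2% as lower. This was Tsc22d3, which encodes GILZ, 1.49-fold higher (58.3 ± 2.69 in knockout, 39.2 ± 4.17 in wild type), while Fkbp5, Per1 and Sgk1 had log2 changes of -0.28, 0.26 and -0.29. Among 6 tested chaperones of steroid receptors, Fkbp4, the HSP90 co-chaperone FKBP52, rose 2.02-fold (89.3 ± 5.49 in knockout, 44.2 ± 3.13 in wild type) and the other 5 did not pass. Esrra, an estrogen-related receptor of mitochondrial genes, averaged 2.04 ± 0.153 in knockout and 1.85 ± 0.182 in wild type (log2 change 0.14, 95% interval -0.09 to 0.37), and Esrrg was too dim to test.

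**Figure D4:**
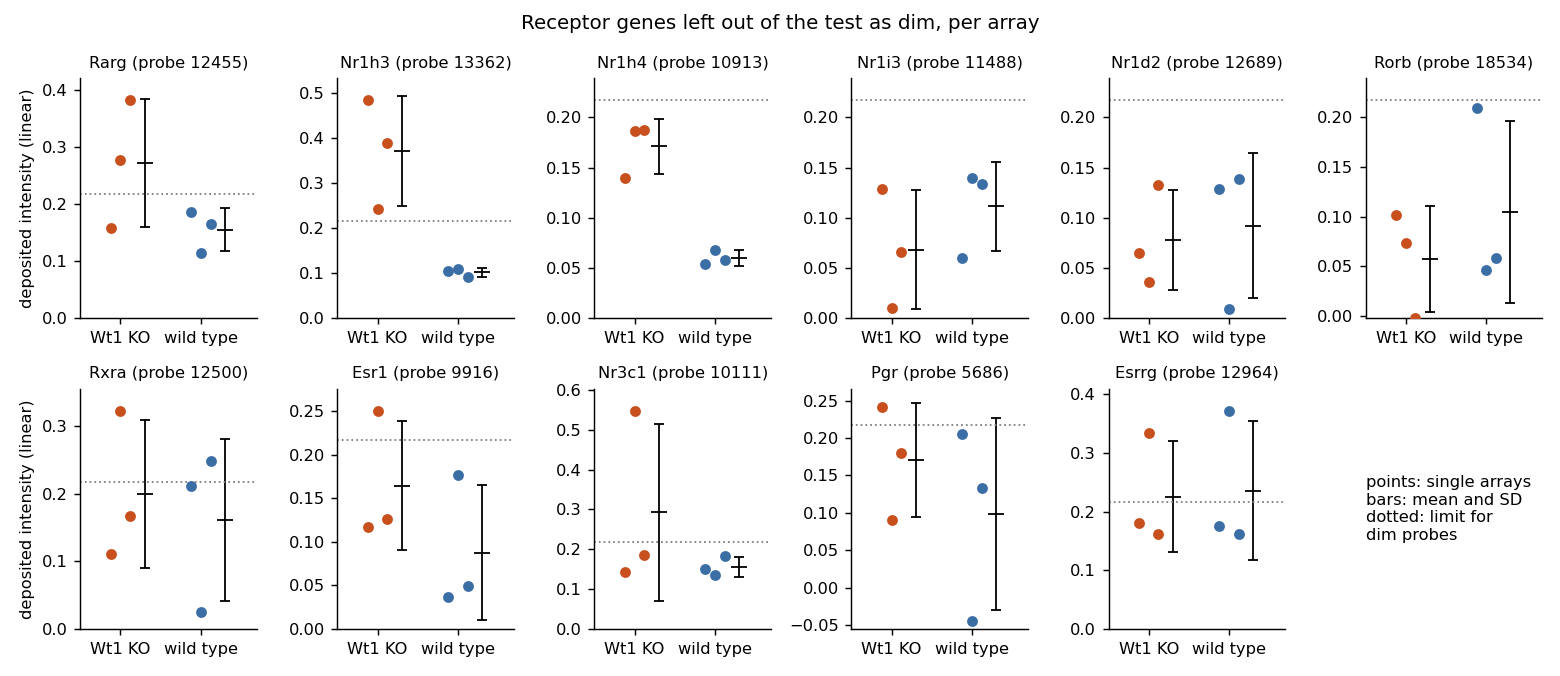
Deposited intensity (y axis, linear) of the 11 receptor genes left out of the test as dim, on each of the 3 knockout arrays (left) and 3 wild-type arrays (right), with mean and SD and the limit of 0.217 as a dotted line. For Nr1h3 all knockout arrays lie above the limit and all wild-type arrays below it; in most other panels the genotypes overlap.

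Coregulators are the proteins through which nuclear receptors act on chromatin. Their counts stand beside 24.1% of all tested probes higher and 17.2% lower. Of 16 tested corepressors and coactivators, 6 fell, 2 rose and 8 did not pass, with a median log2 change of -0.14, against 0.09 for all tested probes, and both counts were the same under the 3 other scalings tried. Carm1, an arginine methyltransferase and coactivator, fell 2.59-fold (2.48 ± 0.572 in knockout, 6.29 ± 0.414 in wild type) and Cited2, a CBP/p300-binding factor known to work with WT1 in the adrenogonadal primordium, 2.36-fold (0.551 ± 0.0705 in knockout, 1.29 ± 0.0296 in wild type). Nsd1 and Gps2, a subunit of the NCOR complex, fell 1.90-fold and 1.58-fold, but Nsd1 missed the threshold without wild-type array 1 (adjusted p = 0.131), wild-type array 3 (0.108) or knockout array 1 (0.060). Lcor and Nrip1, which encode ligand-dependent corepressors, fell 1.44-fold and 1.35-fold, and the p160 coactivator genes Ncoa1 and Ncoa3 rose 1.30-fold and 1.22-fold. These 4 were named after their values were seen.

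**Figure D5:**
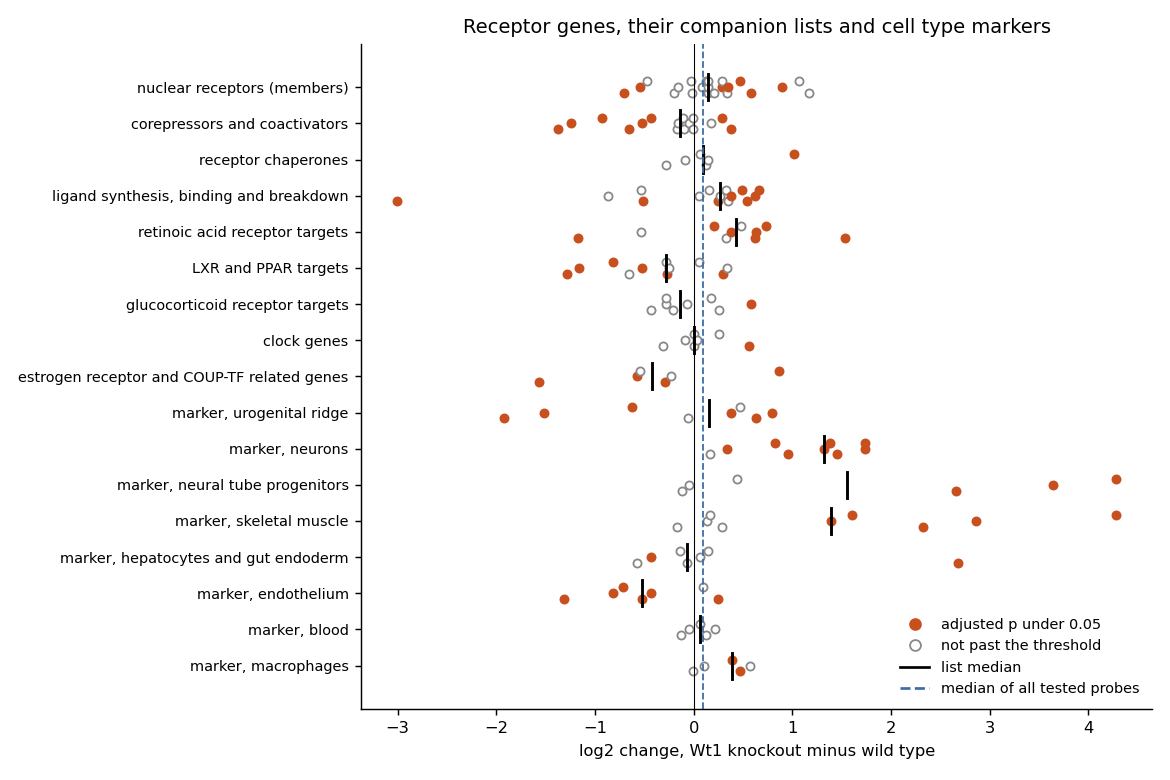
Log2 change (x axis, Wt1 knockout minus wild type) of each tested gene in the receptor set, its 8 companion lists and 8 cell type marker lists, with the list median as a black bar and the median of all tested probes as a dashed line. The receptors spread from -0.70 to 1.17 around a median of 0.14, the LXR and PPAR targets have a median of -0.28, and the neuronal markers one of 1.32.

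The gonadal receptors outside the set are set beside it for scale. Nr5a1, which encodes SF-1, averaged 2.11 ± 0.0936 in knockout and 2.78 ± 0.111 in wild type on its brighter probe (log2 change -0.40, adjusted p = 0.00287), and Nr0b1 averaged 0.953 ± 0.173 in knockout and 3.32 ± 0.116 in wild type (log2 change -1.81). By the brightest probe of each gene, the lowest log2 change in the set was the -0.70 of Rxrb. No test compared the sets. The 10 members with no named probe were Thra, Rarb, Nr1h2, Hnf4a, Nr2c2, Nr2e3, Esr2, Nr3c2, Esrrb and Nr5a2, and they are not analysed here. For Nr2c2 the only annotated probe carried a second gene's symbol. Nr1i2 had a named probe with no value on any array, and the related receptor Nr1i3 was below the limit for dim probes on all arrays.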

How the data were processed

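Total RNA of pooled urogenital ridges was biotin-labelled and hybridised to single-colour CodeLink arrays, per the labels' protocols. The authors deposited linear spot intensity values, with array medians between 0.956 and 0.966. The scanner software, any background correction and spot flags: not given in the sources used here. Each array had 153 to 246 values at or below 0 and 190 to 212 empty cells. Values under the 5th percentile of positive values (0.0811) were set to it and log2 was taken, with no further scaling because array medians of log2 values differed by 0.0153. Testing required values on 2 arrays of each genotype and a mean log2 above the 25th percentile (an intensity of 0.217). The test was limma's (version 3.58.1, R 4.3.3; lmFit, then eBayes with an intensity trend), and p-values were adjusted by Benjamini-Hochberg over 15062 probes, two-sided. The fit was tested on simulated data. A fold is the log2 change on the linear scale. A lower bound ("at least") sets the higher genotype against, per array, the higher of the limit and the probe's own value, as means of log2 values. It allows for dim values and not for the spread between arrays.

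GEO's platform annotation supplied the probes' genes, with symbols updated by Entrez identifier. It gave 15120 probes 1 symbol and 38 several, and it did not list 5131. Where a gene had several probes, the brightest one complete over the 6 arrays stands for it. Every member is accounted for, and the rule named at most 4 genes per companion list, the called ones that changed most. Every-array values were fixed for members past 1.5-fold and for 8 members by name, and were extended to the other called members, to Ppara, Nr2e1 and Hnf4g, and to dim members of interest after their values were seen, as were the names of other list genes and of cell type markers. Members, lists and tests were chosen with earlier results of these data known. Promoters are RefSeq's, GRCm38.p6. Alternatives tried were 3 scalings, 3 floors, 2 filters, no trend, array weights, a replicate block, each array left out and another choice of probe.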

Additional observations from a re-analysis of the deposited data

How the results depend on the processing

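As reported, 5 receptors were higher, 2 lower and 2 changed by at least 1.5-fold. The higher count was 3 under cyclic loess, 3 with a variance prior that ignores intensity and 2 to 6 when 1 array was left out. The lower count was 0 when only probes above the median probe were tested, which leaves Rxrb and Rora untested, and 0 to 2 when 1 array was left out. The count at 1.5-fold was 1 above the median probe, 1 with array weights and 1 to 4 when 1 array was left out. Over all probes, 6221 passed, and 4800 to 7317 when 1 array was left out. Among companion lists, lower chaperones numbered 1 under quantile normalization. Over the 3 other scalings, the ligand list had 5 to 6 higher and 2 to 3 lower, and the retinoic acid receptor targets 5 to 6 higher. The LXR and PPAR targets had 5 to 6 lower, and the list tied to COUP-TF or estrogen receptor action 3 to 4 lower. With the replicate block the receptor counts were 5, 2 and 2, and 6019 probes passed. Same-numbered arrays did not deviate together (r = 0.000489, -0.0208 and -0.00572 across probes). No pairing by number was seen, but this check cannot exclude one.

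The direction of a log2 change turned 15 times, at 6 genes, and passed the threshold in 2 of these, the brighter Nr2f2 probe at -0.30 under quantile normalization and -0.25 under cyclic loess. Pparg gave -0.084 under quantile normalization, -0.057 under cyclic loess and -0.036 to 0.41 when 1 array was left out. Nr2c1 gave 0.0054 under cyclic loess, 0.073 with array weights and -0.17 to 0.18 when 1 array was left out. Vdr gave 0.012 with array weights and -0.32 to 0.13 when 1 array was left out. Leaving out 1 array gave -0.081 to 0.015 for Nr1d1 and -0.063 to 0.35 for the second Thrb probe. The cause was not tested. Dim signal limits the 11 untested receptors, since no detection flags were used.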

Other observations

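Marker lists of blood, macrophages, liver and gut gave values that belong beside no receptor in particular. Their counts stand beside 24.1% of all tested probes higher and 17.2% lower. Of 5 tested blood genes none passed, with globins such as Hba-a1 averaging 407 in knockout and 348 in wild type, although 3 passed as lower under quantile normalization and under cyclic loess. Of 5 tested macrophage genes 2 rose, Aif1 by 1.39-fold and Tyrobp, a signalling adaptor, by 1.31-fold. Of 7 tested hepatocyte and gut genes, Ttr, which encodes transthyretin, rose 6.40-fold and Apoa1 fell 1.35-fold, while Afp had a log2 change of -0.14 and did not pass.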
